A study of Homo sapiens with 9 samples.

Results

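Cytokinesis is the physical division of a cell at the end of mitosis. The spindle midzone, a bundle of overlapping microtubules, and the centralspindlin complex bound to it activate the small GTPase RhoA at the cell equator, and RhoA in turn drives a ring of actin and myosin II that pinches the cell. Formins are proteins that start and lengthen unbranched actin filaments, and the diaphanous family is one branch of them. The intercellular bridge that is left, the midbody, is finally cut by the ESCRT machinery in the step called abscission.

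The set described here holds 10 genes of this process, namely *ANLN*, *ECT2*, *RACGAP1*, *PRC1*, *CIT*, *SHCBP1*, *CEP55* and the 3 diaphanous formins *DIAPH1*, *DIAPH2* and *DIAPH3*. A probe set was taken for a gene where the platform annotation gave it that 1 symbol, and of several it would have been chosen by the highest mean signal over all 9 arrays, but each gene had only 1. In this way 9 of the 10 genes had a value, of 22354 genes with a probe set of 1 symbol. The only probe set of *CIT*, which encodes citron kinase of the midbody, also lists the microRNA gene *MIR1178*, so no value is given for it. The genes were selected on knowledge of earlier results of these arrays, and 5 of them (*ANLN*, *SHCBP1*, *DIAPH3*, *CEP55* and *PRC1*) stand in the study's own list of changed genes, so their calls below are a description and not independent evidence.

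The study treated MDA-MB-231 cells with GNE-140, a small-molecule inhibitor of lactate dehydrogenase isozymes, at 50 µM for 24 h and set them against control cells. MDA-MB-231 is an established triple-negative breast cancer cell line. Total RNA was hybridised to 9 GeneChip Human Gene 2.1 ST arrays in 2 sets. Set 1 held 2 GNE-140 arrays and 3 control arrays, and set 2 held 2 GNE-140 arrays and 2 control arrays. The GNE-140 stock was dissolved in DMSO, and whether the control flasks received the solvent is not stated in the sources used here. The text of the study describes the sets as separate runs of the arrays, and whether they also came from separate cultures is not stated. Groups follow the titles and the treatment labels. The source names of 6 arrays (all 4 GNE-140 arrays and both set 2 controls) name a Boswellia preparation instead, a conflict that could not be settled and that touches every value below. The numbers of arrays per set in the text of the study differ from those in the labels. Nothing says that arrays of 1 group came from separate flasks, so the p-values measure the spread between these arrays, which may be technical.

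The values are log2 signals as deposited, and 1 log2 unit is a factor of 2. The sets lay on different scales, with array medians of 1.32 to 1.36 in set 1 and 2.27 to 2.31 in set 2, so GNE-140 was set against control within each set and then over both with the set as a block. Pairs of arrays correlated at 0.976 to 0.986 within set 1, at 0.979 to 0.985 within set 2 and at 0.932 to 0.952 between the sets. In set 1, 43.7% of all probe sets read the same value on 3 or more arrays, against 0.0336% in set 2. The 10 measured mesenchymal-type markers of the line, such as *VIM*, *CD44* and *AXL*, were all above the median on every array. Of the 11 luminal markers, 7 were above it too. Their mean log2 signals, which pool the 2 scales, were 7.20 (*KRT19*), 6.10 (*TFF1*), 5.63 (*XBP1*), 4.47 (*EPCAM*), 2.47 (*GATA3*) and 2.32 (*AGR2*). The others were 2.19 (*ERBB3*), 2.10 (*CDH1*), 1.41 (*FOXA1*), 1.38 (*ESR1*) and 1.04 (*PGR*). Of the 7 measured leukocyte markers, *CD68* (mean log2 signal 8.36) was above the median on every array. The other 6, *PTPRC* (0.81) and *CD3E* (0.87) among them, were not. Of the 7 measured fibroblast markers, 1 was above the median on every array. No marker of the 4 cell type lists passed the test of GNE-140 against control.

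Many genes of late cell division carry near their start site a short motif, the cell cycle genes homology region (CHR), through which the DREAM and MMB complexes are known to act. The promoter table from RefSeq (GRCh38.p14) held 11 windows for 9 of the 10 genes, each of 300 bases from 250 before to 50 after the start site. The last 100 bases are shown for the 5 genes that fell with GNE-140 and, for contrast, for *ECT2* and the other 2 diaphanous formins. *ECT2* and *DIAPH3* have more than 1 window, and the first of each is shown. All are written 5′ to 3′ along the strand of the gene. Capitals mark the canonical CHR hexamer TTTGAA on either strand, which reads TTCAAA when it lies on the other one. The variant TTCGAA was searched as well.
ANLN, chr7:36389812-36389911, plus strand: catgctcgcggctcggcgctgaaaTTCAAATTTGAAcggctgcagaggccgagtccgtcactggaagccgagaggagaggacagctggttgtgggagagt
PRC1, chr15:90994486-90994585, minus strand: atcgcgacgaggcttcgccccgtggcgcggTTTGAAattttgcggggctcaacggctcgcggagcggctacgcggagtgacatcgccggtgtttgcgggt
SHCBP1, chr16:46621330-46621429, minus strand: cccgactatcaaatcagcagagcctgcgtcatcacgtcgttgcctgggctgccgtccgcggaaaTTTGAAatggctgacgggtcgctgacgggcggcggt
CEP55, chr10:93496562-93496661, plus strand: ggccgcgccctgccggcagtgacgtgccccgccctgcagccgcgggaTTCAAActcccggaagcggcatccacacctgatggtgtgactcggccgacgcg
ECT2, chr3:172750676-172750775, plus strand: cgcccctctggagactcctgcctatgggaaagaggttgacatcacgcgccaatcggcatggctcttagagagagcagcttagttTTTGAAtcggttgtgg
DIAPH1, chr5:141618951-141619050, minus strand: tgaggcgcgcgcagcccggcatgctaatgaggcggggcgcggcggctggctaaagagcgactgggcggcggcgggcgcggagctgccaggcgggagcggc
DIAPH2, chrX:96684792-96684891, plus strand: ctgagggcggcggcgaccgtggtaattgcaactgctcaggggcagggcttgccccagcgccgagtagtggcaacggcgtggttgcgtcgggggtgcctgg
DIAPH3, chr13:60163879-60163978, minus strand: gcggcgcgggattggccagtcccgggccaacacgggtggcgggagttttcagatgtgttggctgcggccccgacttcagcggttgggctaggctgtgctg

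Within these 100 bases the hexamer was present in *ANLN*, *ECT2*, *PRC1*, *CIT*, *SHCBP1* and *CEP55*, that is, in 6 of the 9 genes with a window, and in none of the diaphanous formins. Of all 35116 promoter windows in the table, 4.62% held TTTGAA on either strand in the same 100 bases and 15.2% held it anywhere in the 300. In *ANLN* a match on each strand lay side by side, the nearer beginning at -20 from the start site, where that of *PRC1* also began. Within the 100 bases, the match of *CEP55* spanned the start site, and that of *SHCBP1* began 14 bases after it. Outside the 100 bases, *DIAPH2* held 1 match, beginning at position -124 from its start site. Other matches there began at -116 in *CEP55*, at -115 in the first window of *ECT2* and at -208 in *CIT*. The second window of *ECT2* held matches beginning at -242 and -182. *SHCBP1* held the variant TTCGAA (1.45% of all windows) beginning at -214. The CCAAT box was found on either strand in 34.6% of all windows. It occurred in *ECT2*, *PRC1*, *CIT*, *SHCBP1*, *CEP55*, *DIAPH1* and *DIAPH3*, but not in *ANLN* or *DIAPH2*. The first window of *DIAPH3* held it 2 times, beginning at -106 and -40. The plot of motif positions shows all 11 windows. A match in letters is a description and not a binding site, and its absence from a window says nothing of the factor.

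**Figure D1:**
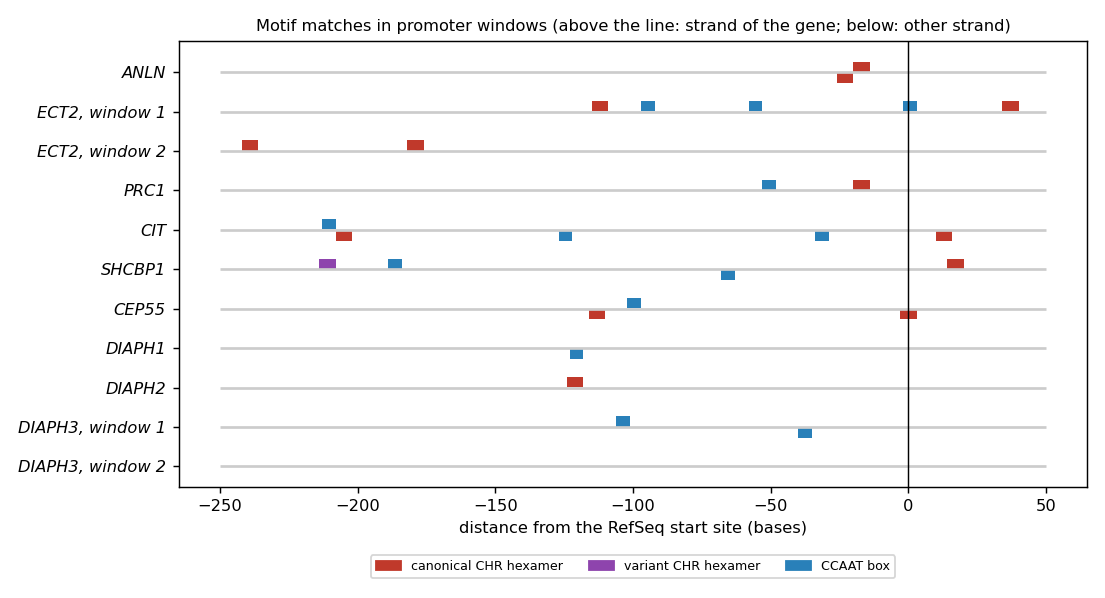
Positions of motif matches in the promoter windows of the 9 genes with an entry; the x axis is the distance from the RefSeq start site in bases, each grey line is 1 window of 300 bases, and blocks above or below the line are matches on the strand of the gene or on the other strand. Canonical CHR hexamers lie within 50 bases of the start site in *ANLN*, *ECT2*, *PRC1*, *CIT*, *SHCBP1* and *CEP55*. *DIAPH1* and *DIAPH3* have none, and that of *DIAPH2* lies farther out, at -124. *ECT2*, *CIT* and *CEP55* also have matches farther out than 50 bases.

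After 24 h of GNE-140, 5 of the 9 genes fell, namely *SHCBP1*, *ANLN*, *DIAPH3*, *PRC1* and *CEP55*, by 2.81- to 2.01-fold. The other 4, *ECT2*, *RACGAP1*, *DIAPH1* and *DIAPH2*, had log2 fold changes between -0.35 and -0.12 and did not pass, and none of the 9 rose. The test was limma's moderated test with the set as a block, adjusted over all 53617 probe sets by the Benjamini-Hochberg method, with an adjusted p under 0.1 as the threshold, the cutoff used in the study, which also asked for a 2-fold change and for an unadjusted p under 0.05 repeated in both sets. Of all probe sets, 0.532% passed as lower and 0.433% as higher. Of the 22354 genes with a probe set of 1 symbol, 1.02% passed as lower and 0.68% as higher. All 5 genes were also past a 2-fold change, with an unadjusted p under 0.05 over both sets, and lower in each set, a combination met by 0.138% of all probe sets. The median log2 fold change was -1.01 over the 9 genes and 0.0049 over all probe sets. In RNA from whole cultures, fewer dividing cells and less RNA of a gene per cell cannot be told apart. Other genes of the cell cycle moved as well, 16 of 25 measured G2/M genes and 22 of 27 measured S-phase genes being lower, and their part in the result was not tested.

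These calls rest on the fit over both sets with a term for the set. Within set 1 alone and within set 2 alone, limma called 0 of the 9 genes at an adjusted p under 0.1, and no probe set of the array reached it in either. At an unadjusted p under 0.05, 6 of the 9 genes were lower in set 1, against 2.07% of all probe sets, and 5 in set 2, against 4.21%. Without a term for the set the count was likewise 0, with 5 at an unadjusted p under 0.05, against 0.571% of all probe sets.

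*ANLN* encodes anillin, the scaffold that ties RhoA, actin, myosin II and septins together in the contractile ring. Its log2 signal was 6.69 and 6.57 on the GNE-140 arrays of set 1, against 7.64, 7.84 and 7.65 on the controls. In set 2 it was 6.02 and 5.98 with GNE-140, against 7.72 and 7.89 in controls. The groups did not overlap in either set. Levels are not compared between the sets, which lie on different scales. The fall was 2.65-fold over both sets (log2 fold change -1.41 ± 0.14 SE, 95% interval -1.73 to -1.08, adjusted p = 0.0097 by limma).

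*SHCBP1* encodes a protein that binds centralspindlin at the midbody. It had the lowest log2 fold change of the 9 genes. On the GNE-140 arrays it read 4.68 and 4.49 in set 1 and 3.81 and 4.15 in set 2. On the control arrays it read 5.80, 5.83 and 5.84 in set 1 and 5.67 and 5.86 in set 2. Every GNE-140 array was below every control array of its set, and the 3 controls of set 1 were almost equal. The difference was -1.49 ± 0.13 (SE) on the log2 scale, 2.81-fold, with an interval of -1.78 to -1.20 and an adjusted p of 0.0044 by limma.

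The bundling protein PRC1 holds the antiparallel microtubules of the midzone together and recruits kinesins to it. *PRC1* stood at 5.15 and 4.57 on the GNE-140 arrays of set 1, against 5.90, 6.01 and 5.88 on the controls. In set 2 the values were 5.04 and 5.09 with GNE-140, against 6.23 and 6.02 in controls. Again no GNE-140 array reached a control of its set, although replicate B of set 1 lay well below the other GNE-140 array of that set. The fall was 2.09-fold (log2 fold change -1.07 ± 0.12 SE, adjusted p = 0.0114 by limma) and nearly the same in each set, 2.10-fold in set 1 and 2.09-fold in set 2.

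CEP55 builds the midbody platform from which ESCRT proteins are recruited for abscission. The signal of *CEP55* with GNE-140 was 5.42 and 5.42 in set 1 and 5.03 and 5.18 in set 2. Controls had 6.02, 6.07 and 6.16 in set 1 and 6.57 and 6.50 in set 2. The groups were apart in both sets, more widely in set 2. This gene was the closest of the 5 to the thresholds, with a fall of 2.01-fold (log2 fold change -1.01 ± 0.14 SE) and an adjusted p of 0.030 by limma. Its adjusted p was 0.106 without control replicate A of set 2, 0.113 without control replicate B of set 2 and 0.120 without GNE-140 replicate B of set 2.

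ECT2 is the exchange factor that loads RhoA with GTP at the equator, and RACGAP1 is the centralspindlin subunit that binds and activates it. *ECT2* had 7.26 and 7.05 on the GNE-140 arrays of set 1, against 7.40, 7.48 and 7.54 on the controls, and in set 2 it had 7.44 and 7.75, against 7.94 and 8.02. Every GNE-140 array lay below every control array of its set, by a small margin. Its log2 fold change of -0.35 ± 0.085 (SE), with an interval of -0.55 to -0.16, missed the threshold (adjusted p = 0.177 by limma), but after quantile normalization of the 9 arrays it passed (log2 fold change -0.42, adjusted p = 0.0693). Separation of this kind in both sets was seen for 6 of the 9 genes, the 5 that fell and *ECT2*, and for 2.14% of all probe sets. Of these 6, *DIAPH3* is the one with no CHR hexamer in the promoter bases printed above. *RACGAP1* had no promoter window and *CIT* no value, and a link between motif and response was not tested.

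*RACGAP1* read 2.20 and 2.32 with GNE-140 and 2.62, 2.32 and 2.35 in controls of set 1. The set 2 arrays read 1.94 and 1.97 with GNE-140 and 1.77 and 2.23 in controls. The groups overlapped in set 2 and touched in set 1, and the signal in set 2 was below the median of every array. The log2 fold change was -0.12, with an interval of -0.37 to 0.13 (adjusted p = 0.746 by limma). *KIF23*, the kinesin subunit of centralspindlin and partner of RACGAP1, had 5.37 and 5.39 on the GNE-140 arrays of set 1, against 6.40, 6.29 and 6.48 on the controls, and fell by 1.09 ± 0.075 (SE) on the log2 scale over both sets (adjusted p = 0.0022 by limma).

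**Figure D2:**
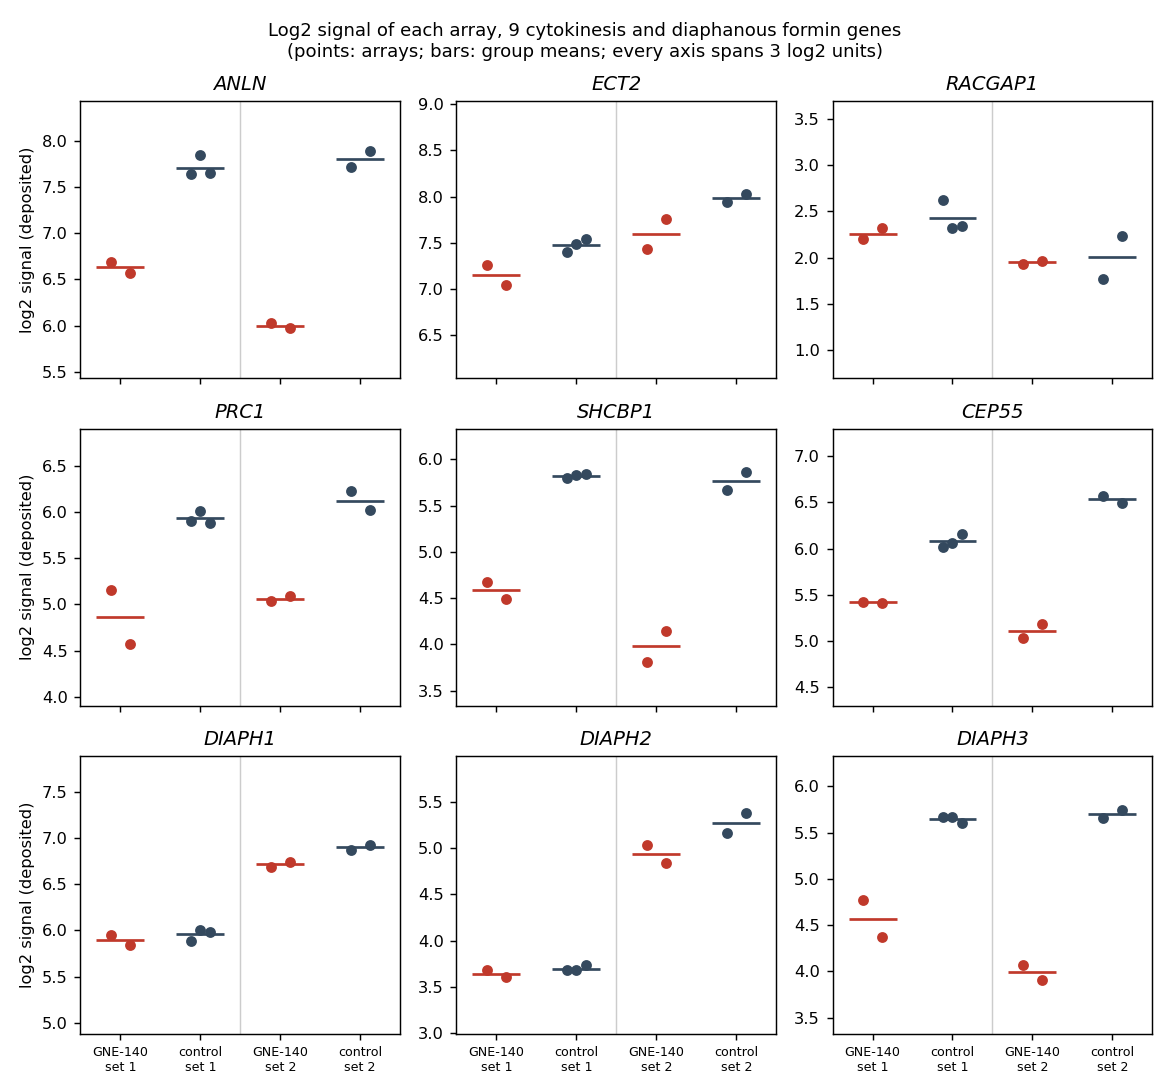
Log2 signal of the 9 genes on each array, by group, with 1 panel a gene; points are arrays, bars are group means, and every y axis spans 3 log2 units. In *ANLN*, *PRC1*, *SHCBP1*, *CEP55* and *DIAPH3* the GNE-140 arrays stand apart below the controls in both sets, in *ECT2* by less, and in *RACGAP1* the groups overlap.

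Of the 3 diaphanous formins, all of which nucleate actin filaments, *DIAPH3* was the only one that passed. *DIAPH3* measured 4.77 and 4.37 on the GNE-140 arrays of set 1, against 5.67, 5.66 and 5.60 on the controls. The arrays of set 2 measured 4.07 and 3.91 with GNE-140, against 5.66 and 5.74 in controls. The controls lay close together within each set, and every GNE-140 array was below every control of its set. The fall was 2.58-fold (log2 fold change -1.37 ± 0.14 SE, interval -1.69 to -1.04, adjusted p = 0.0097 by limma).

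*DIAPH1* had 5.95 and 5.84 on the GNE-140 arrays of set 1, against 5.88, 6.01 and 5.99 on the controls, and 6.69 and 6.74 in set 2, against 6.87 and 6.93. The groups overlapped in set 1 and were narrowly apart in set 2. Its log2 fold change was -0.12, with an interval of -0.26 to 0.02 (adjusted p = 0.552 by limma).

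*DIAPH2* had 3.68 and 3.60 on the GNE-140 arrays of set 1, against 3.68, 3.68 and 3.73 on the controls, with the same value on 3 of the 5 arrays. In set 2 it had 5.04 and 4.84, against 5.16 and 5.38. The groups touched in set 1 and were apart in set 2, and the log2 fold change was -0.18 (interval -0.38 to 0.01, adjusted p = 0.514 by limma). The intervals of both genes exclude a fall of 2-fold.

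The difference between the log2 signals of *DIAPH3* and *DIAPH1* on the same array describes this unequal change, although the 2 probe sets cannot be compared in level. It was -1.18 and -1.47 on the GNE-140 arrays of set 1, against -0.21, -0.34 and -0.38 on the controls. In set 2 it was -2.62 and -2.83 with GNE-140, against -1.21 and -1.18. For *DIAPH3* and *DIAPH2* the difference was 1.09 and 0.77, against 1.99, 1.99 and 1.87, in set 1, and -0.97 and -0.93, against 0.50 and 0.36, in set 2. In both sets and for both pairs every GNE-140 array lay below every control array. These differences were not tested, since *DIAPH3* was known to have fallen when the genes were chosen.

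Of the 9 genes, 7 had a lower log2 fold change in set 2 than in set 1, the exceptions being *PRC1* and *RACGAP1*. The share of all probe sets with a lower value in set 2 was not counted. This was not particular to these genes. The other lists in which most genes fell had lower medians in set 2 too. In sets 1 and 2 these were -0.72 and -1.11 (midzone and furrow), -0.75 and -1.12 (G2/M), and -0.59 and -0.99 (S phase). *ANLN* fell 3.49-fold in set 2 and 2.11-fold in set 1, *SHCBP1* 3.46- and 2.36-fold, *DIAPH3* 3.28- and 2.11-fold, and *CEP55* 2.69- and 1.58-fold. The interaction of set and treatment, fitted over all probe sets by limma, passed for 0 of the 9 genes at an adjusted p under 0.1, and for 0.0541% of all probe sets. At an unadjusted p under 0.05 it held 4 of the 9 genes, *ANLN*, *SHCBP1*, *CEP55* and *DIAPH3*, against 8.36% of all probe sets. The log2 difference between the responses, set 2 minus set 1, was -0.76 for *CEP55* (interval -1.05 to -0.48, adjusted p = 0.276) and -0.72 for *ANLN* (interval -1.07 to -0.38, adjusted p = 0.359). For *PRC1* it was 0.01, with an interval of -0.57 to 0.59. The sets differ in scale as well, and a different scale and a different response cannot be told apart here.

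**Figure D3:**
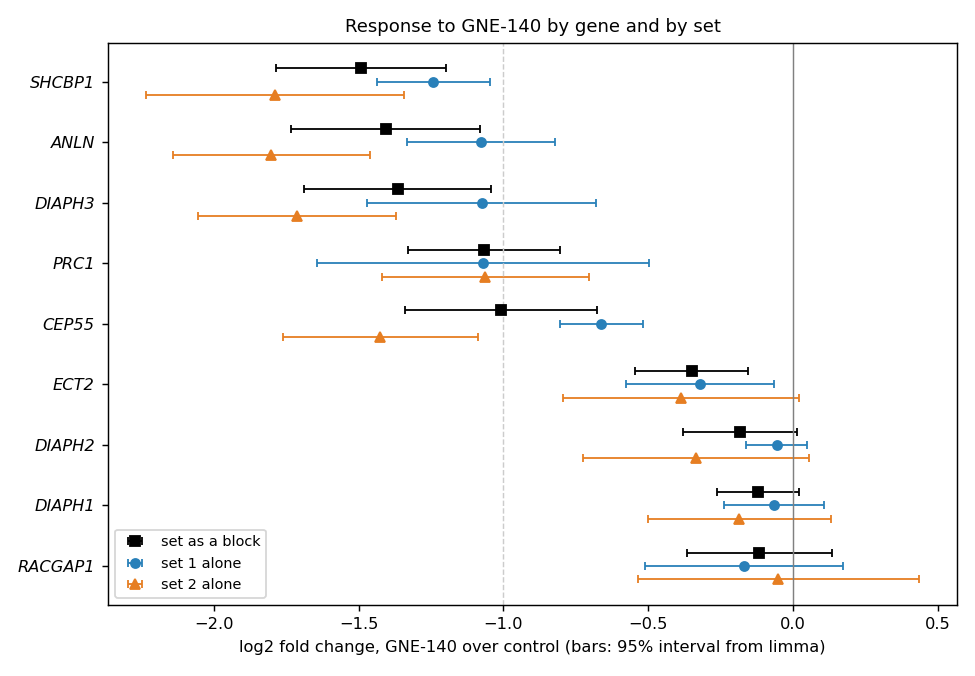
Log2 fold change of GNE-140 over control for each gene, with the set as a block (black squares), in set 1 alone (blue circles) and in set 2 alone (orange triangles); bars are 95% intervals from limma and the dashed line marks a 2-fold fall. *SHCBP1*, *ANLN*, *DIAPH3* and *CEP55* lie further left in set 2 than in set 1, *PRC1* does not. All intervals of *RACGAP1*, *DIAPH1* and *DIAPH2* include 0, as does that of *ECT2* in set 2.

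Other genes of the process came from 4 lists, 3 of which are described below. The lists too were chosen with earlier results of these arrays known, so their counts are a description and not independent evidence. In all 4, 72 of 78 genes had a value, and 12 (16.7%) were lower and 1 was higher. Among all genes with a probe set of 1 symbol, 1.02% were lower and 0.68% higher. The median log2 fold change over the 72 was -0.06. The 12 became 6 without control replicate A of set 2, 7 without control replicate B of set 2 and 6 without GNE-140 replicate B of set 2. Of the spindle midzone and furrow signalling genes, 9 of 15 fell and none rose, with a median of -0.91. These were *NUSAP1*, *KIF20A*, *PLK1*, *KIF23*, *KIF14*, *FAM83D*, *BIRC5*, *AURKB* and *KIF2C*. All but *PLK1*, *BIRC5* and *KIF2C* stand in the study's own list of changed genes. The midzone and furrow list is broad, and not all of its genes, *KIF2C* and *FAM83D* among them, are specific to the midzone or furrow.

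*NUSAP1*, a microtubule-bundling protein of the spindle, had the lowest log2 fold change of the midzone and furrow genes, -1.27 ± 0.097 (SE, adjusted p = 0.0027 by limma). Its signal on the GNE-140 arrays was 5.71 and 5.50 in set 1 and 5.61 and 5.59 in set 2. Its controls had 6.79, 6.73 and 6.58 in set 1 and 7.10 and 7.07 in set 2, all above every GNE-140 array of their set. *KIF20A*, the kinesin that carries the chromosomal passenger complex to the midzone, fell by 1.18 ± 0.074 (adjusted p = 0.0022). *PLK1*, the kinase that acts on RACGAP1 so that ECT2 is recruited, fell by 1.13 ± 0.13 (adjusted p = 0.015). *RHOA* itself had a log2 fold change of 0.07 (interval -0.13 to 0.27, adjusted p = 0.818).

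Of the 24 genes of the actomyosin ring and septins, none was lower and 1, *RHOB*, was higher, and the list median was -0.05. *RHOB*, a small GTPase of endosomes and the plasma membrane, had 5.07 and 5.16 with GNE-140 and 4.55, 4.54 and 4.50 in controls of set 1. In set 2 it had 6.21 and 6.14 with GNE-140 and 5.83 and 5.86 in controls. It rose by 0.47 ± 0.069 (SE, adjusted p = 0.033 by limma), with every GNE-140 array above every control of its set. At an unadjusted p under 0.05, 5 of the 24 genes were lower and 2 higher, where 4.42% of all probe sets were lower and 6% higher. The myosin II heavy chain gene *MYH10* had a log2 fold change of -0.45 (adjusted p = 0.166) and the actin gene *ACTG1* one of 0.19 (adjusted p = 0.343). Signal limits this list, although 22 of the 24 genes were above the median on every array. Mean log2 signals were 1.88 for *MYH14*, 1.97 for *CFL1* and 3.60 for *ACTB*, against 9.88 for *ACTG1*. For probe sets of low signal, a value near 0 does not show that the gene was unchanged.

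None of the 21 measured genes of abscission and the ESCRT machinery passed limma in either direction, with 1 lower and 3 higher at an unadjusted p under 0.05, the threshold that 4.42% of all probe sets passed as lower and 6% as higher, and a list median of 0.07. The ESCRT-III subunit genes of highest mean signal in the list, *CHMP4B* and *CHMP5*, had log2 fold changes of -0.09 (interval -0.23 to 0.06) and -0.03 (interval -0.31 to 0.24). *CEP55*, which acts upstream of these proteins, was 2.01-fold lower.

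Of 11 formins outside the diaphanous family, 1 fell, against 1.02% of all genes with a probe set of 1 symbol. This was *FHOD3*, best known for its part in the sarcomeres of muscle. It had 4.15 and 3.86 on the GNE-140 arrays of set 1, against 4.47, 4.49 and 4.47 on the controls, and 4.74 and 4.72 in set 2, against 5.33 and 5.21. The groups did not overlap, and the log2 fold change was -0.50 ± 0.071 (SE, adjusted p = 0.029 by limma). That count became 0 without control replicate A, GNE-140 replicate A or GNE-140 replicate B of set 2. The other 10 had values between -0.23 for *FMNL1* and 0.49 for *DAAM1* (adjusted p = 0.203), and the list median was -0.08.

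**Figure D4:**
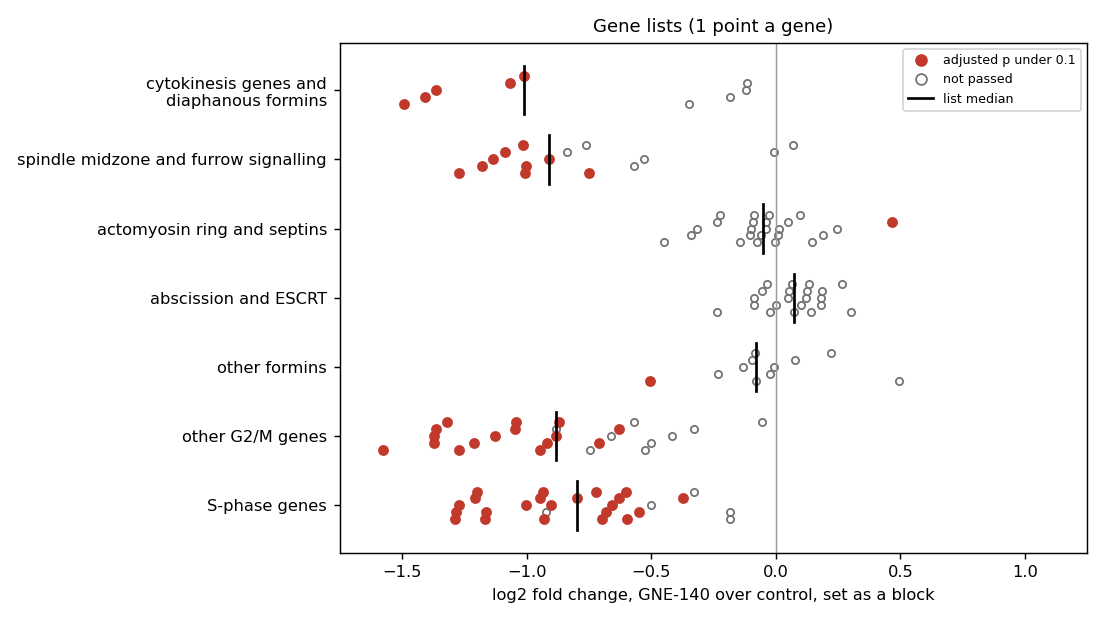
Log2 fold change of GNE-140 over control (set as a block) for every measured gene of 7 lists, 1 point a gene; filled points passed at an adjusted p under 0.1 and the black bar is the list median. The genes described here and those of the midzone and furrow, G2/M and S-phase lists lie mostly to the left, with medians of -1.01, -0.91, -0.88 and -0.80, while those of the actomyosin and abscission lists and the other formins lie about 0.

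Across the 9 arrays, each gene's values after removal of the set means were set beside those of every other gene with 1 symbol. These correlations share arrays and carry the difference between GNE-140 and control itself, so they are given as a description. Among the 5 genes that fell, r was between 0.898 (*PRC1* and *CEP55*) and 0.992 (*ANLN* and *DIAPH3*). Genes that did not pass varied with them as well, *ECT2* with an r of 0.922 to *SHCBP1*, 0.894 to *PRC1* and 0.867 to *ANLN*, and *DIAPH1* with one of 0.843 to *ANLN*. *RACGAP1* had an r of 0.0762 to 0.368 with the other 8 genes. The genes most like *ANLN* were *NDC80* (r = 0.995), *FOXM1* (0.993) and *MCM7* (0.993), and those most like *DIAPH3* were *NDC80* (0.995), *CCNA2* (0.994) and *MCM7* (0.992). *SHCBP1* was most like *NCAPH* (0.993), *TOP2A* (0.993) and *ITGA6* (0.992), and *CEP55* most like *RRM2* (0.998), *DTL* (0.996) and *NCAPG* (0.995).

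*PRC1* was most like *FHOD3* (0.996), the formin that fell, then *TCEA3* (0.992) and *CENPF* (0.992). *ECT2* was most like *MELK*, *KIF15* and *XAF1* (0.966 each). The nearest genes of *DIAPH1* were *NUDT7* (0.974), *SNRPD2* (0.966) and *LFNG* (0.961), and those of *DIAPH2* were *HAS3* (0.984), *EEF1D* (0.983) and *NEGR1-IT1* (0.982). For *RACGAP1* they were *MIR122* (0.964), *BCO1* (0.962) and *MIR3684* (0.952).

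*DIAPH1*, *DIAPH2*, *DIAPH3* and *PRC1* each have an antisense RNA gene with a probe set of its own, and none of these passed. The log2 fold change was -0.07 for *DIAPH1-AS1*, -0.09 for *DIAPH2-AS1*, -0.01 for *DIAPH3-AS1* and 0.03 for *PRC1-AS1* (adjusted p between 0.744 and 0.980 by limma). The mean log2 signal of these 4 antisense probe sets was between 0.90 and 1.99.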

How the data were processed

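The series has a deposited log2 signal for each of 53617 probe sets. Scanner files were processed by the authors in the Affymetrix Expression Console, and the submitters' notes add the Transcriptome Analysis Console. The sources used here do not say how signals were summarized, background-corrected and normalized. That the unit is log2 was read from the range of the values.

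Of the probe sets, 23866 had 1 gene symbol, 1852 several and 27899 none. Linear models were fitted to all of them with limma 3.58.1 (R 4.3.3, lmFit with eBayes, checked on simulated data), and p-values were adjusted by Benjamini-Hochberg over the whole array, with 95% intervals. Arrays have no depth, and their number limits the precision.

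The members and lists were chosen with earlier results of these data known. Values are given for every member and for the 3 genes most correlated with each. From each cytokinesis list and the other formins, up to 4 genes that passed are named, those with the largest changes, or the 2 of highest mean signal where none passed. *RHOA*, *MYH10*, *MYH14*, *ACTB*, *ACTG1*, *CFL1*, *FMNL1*, *DAAM1*, the other midzone genes listed and the antisense genes were named after their values were seen. The values of 1 cytokinesis list are not reported here beyond its share in the joint count. Whether letters A to C pair the arrays could not be decided. The r of same-letter deviations lay between -0.15 and 0.03. In a group of 2 arrays the deviations of A and B mirror each other, so this check cannot exclude pairing. Alternatives were no set term, a letter block, single sets, 2 other scalings, a signal filter, another prior, a stricter threshold, the mean of all probe sets of a gene and each array left out.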

Additional observations from a re-analysis of the deposited data

Results flagged for a closer look

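Of 92 genes screened (the genes described, the 4 cytokinesis lists and the other formins), the formin *FMN2* moved in opposite directions in the sets, with every GNE-140 array above every control in set 1 and below every control in set 2. Its log2 fold change was 0.23 in set 1 and -0.10 in set 2. It was singled out by these directions and not by a test of the difference, which was not significant in the interaction fit of limma (adjusted p = 0.604). Its mean log2 signal of 0.90 was below the array medians. The share of all probe sets with such opposite separation was not counted. With so few arrays per group, 1 gene of 92 may be no more than that share.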

How the results depend on the processing

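The count of genes lower at an adjusted p under 0.1 (5), the count that was also past 2-fold (5), that over the 4 cytokinesis lists (12) and that over the other formins (1) each became 0 without a set term, with the letter as a replicate block, in set 1 alone and in set 2 alone. In these settings 5, 6, 6 and 5 of the 9 genes were lower at an unadjusted p under 0.05, and 0.571%, 3.82%, 2.07% and 4.21% of all probe sets. With the set as a block these were 6 genes and 4.42%. Without a set term the adjusted p of the 5 genes was 0.282 to 0.738, and with the replicate block 0.146 to 0.275. Whether the letters pair the arrays could not be decided. Why the counts became 0 in these settings was not tested. The single sets also held fewer arrays. With 1 array left out at a time the counts were 4 to 5, 4 to 5, 6 to 14 and 0 to 1. *ANLN*, *PRC1*, *SHCBP1* and *DIAPH3* passed in 9 of 9 such fits and *CEP55* in 6. No gene changed direction in any alternative, and *ECT2* passed only after quantile normalization. The count of genes whose response differed between the sets was 0 in each alternative run. Of the 9 genes, the probe set of *RACGAP1* alone lay below array medians (those of set 2).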
